A study of Mus musculus with 8 samples.

Results

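The genes described are 39 genes of T cells and natural killer (NK) cells, taken from a list of symbols matched through GENCODE M21 to the Ensembl gene IDs of the count table. All 39 have an ID among the 50143 in the table, 35 passed the filter on low counts, and 14887 genes did so in all. RNA sequencing was done on 8 tumours of Py230, a mouse breast adenocarcinoma cell line, grown in mammary gland 4 of female C57BL/6 mice. Every mouse, in both groups, had been ovariectomized at 6 weeks of age. From 2 weeks after surgery, the obese group (4 tumours) was fed a high-fat diet with 60% of its calories as fat (5.1 kcal/g), and the lean group (4 tumours) a regular diet with 10% (3.6 kcal/g), for 6 weeks before the Py230 cells were injected. Whether the diets went on while the tumours grew is not given in the sources used here. Mice on the high-fat diet gained 35% in weight on average. Tumours were taken on day 56 after tumour initiation. The tumour cells of both groups come from this single cell line, and a tumour sample mixes tumour cells with all host cells in it.

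T cells recognise peptides with an antigen receptor that signals through the CD3 proteins. Helper T cells carry CD4, cytotoxic T cells carry CD8, and regulatory T cells, which restrain the others, depend on the transcription factor FOXP3. NK cells carry no such receptor and kill through activating surface receptors, and like cytotoxic T cells they store granzymes and perforin in granules. In breast tumours these lymphocytes are part of the host's infiltrate, so their genes serve as markers of it. In bulk samples, fewer cells of a type and less RNA per cell cannot be told apart.

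Tumours of obese mice held less RNA of the CD3 complex, of CD8, of CD4 and of the proximal T cell signalling proteins. Of the 35 tested genes, 22 (62.9%) were lower and 1 was higher in obese tumours at an adjusted p under 0.05 (edgeR's quasi-likelihood test, Benjamini-Hochberg adjustment over all tested genes), and 12 did not pass. Over all tested genes, 28.4% were lower and 30.9% higher by the same rule, 59.2% in all. Of all called genes 52.1% were higher, against 41.2% with upper quartile factors, under which 23 of the 35 genes were lower and 1 was higher. The median log2 change, obese minus lean, was −1.38 over the 35 genes and −0.04 over all tested genes. The values of the 4 obese tumours lay below all 4 lean values for 20 of the 35 genes, and above them for 1. Of all tested genes, 57% did not overlap, 28.1% lower and 28.9% higher. Foxp3, Il2ra, Icos, Il7r, the granzyme genes Gzma and Gzmb, the perforin gene Prf1 and the NK receptor genes Ncr1, Klrk1 and Klrd1 were among the 12 that did not pass. Ikzf2 was the gene that rose. Levels below are CPM, counts per 1 M counts after TMM scaling, given per tumour in the order of replicates 1 to 4, and changes are log2 ± SE with n = 4 tumours per group. The labels do not say that each tumour came from a different mouse, so the p-values measure the spread between these 8 samples.

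**Figure D1:**
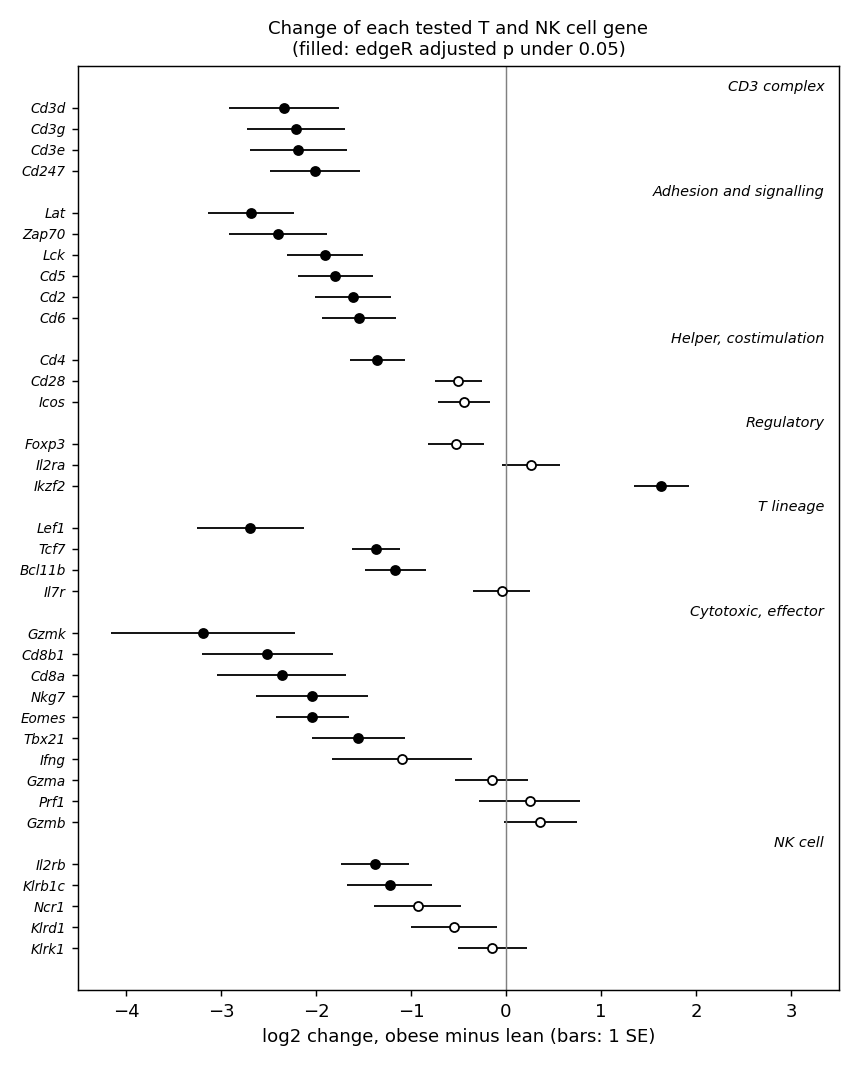
Log2 change (obese minus lean, horizontal axis) of the 35 tested T and NK cell genes, grouped by subset, with bars of 1 SE from the edgeR fit on 4 obese and 4 lean tumours. Filled points passed an adjusted p under 0.05: 22 lie left of 0 and Ikzf2 lies right of it.

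Some facts bear on all values. The libraries held 25.7 to 66.7 M counts. A gene with 0 counts could stand at up to 3 counts, which is 0.049 to 0.124 CPM. That limit and all depths cover counting error only. Lean replicate 2 held the lowest value among the lean tumours for 33 of the 35 genes, and obese replicate 2 the lowest among the obese for 27. Obese replicate 3 held the highest obese value for 22 genes, lean replicate 1 the highest lean value for 22. The summed level of 8 epithelial markers was 788.9 CPM in obese replicate 3, 65.4 to 287.5 CPM in the other obese tumours and 2006 to 2994 CPM in the lean ones, and its part in the results below was not tested.

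The start regions of 27 of the 39 genes were found in the RefSeq table for GRCm38.p6. The sequences shown are those of Cd3d and Cd3g, neighbours read in opposite directions whose levels moved together, Cd8a, which fell with them, and Prf1, which did not pass the test. Each is the 250 bases before the RefSeq start, read 5′ to 3′ along the gene: Cd3d at chr9:44981536-44981785 (plus strand), Cd3g at chr9:44980432-44980681 (minus), Cd8a at chr6:71373177-71373426 (plus) and Prf1 at chr10:61297586-61297835 (plus). The starts of Cd3d and Cd3g lie 1355 bases apart. Capitals mark matches, on either strand, to 4 motifs of factors known in lymphocytes: the RUNX letters TGTGGT, the ETS letters GGAAGT, the E-box letters CAGNTG and the GATA letters AGATAA. No matches overlap in these sequences.
Cd3d: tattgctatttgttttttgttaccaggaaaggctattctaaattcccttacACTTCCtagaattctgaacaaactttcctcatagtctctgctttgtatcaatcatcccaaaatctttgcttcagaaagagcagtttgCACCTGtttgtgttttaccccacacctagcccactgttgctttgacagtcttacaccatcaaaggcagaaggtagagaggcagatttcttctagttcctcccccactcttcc
Cd3g: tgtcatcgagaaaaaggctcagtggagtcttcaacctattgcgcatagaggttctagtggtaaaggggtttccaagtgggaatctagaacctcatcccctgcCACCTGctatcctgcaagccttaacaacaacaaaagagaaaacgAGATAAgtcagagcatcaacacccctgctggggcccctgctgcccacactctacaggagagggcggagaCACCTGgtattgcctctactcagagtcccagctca
Cd8a: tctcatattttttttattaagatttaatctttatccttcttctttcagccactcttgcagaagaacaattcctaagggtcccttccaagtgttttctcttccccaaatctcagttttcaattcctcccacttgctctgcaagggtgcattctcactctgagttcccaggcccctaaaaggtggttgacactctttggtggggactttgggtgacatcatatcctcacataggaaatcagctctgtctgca
Prf1: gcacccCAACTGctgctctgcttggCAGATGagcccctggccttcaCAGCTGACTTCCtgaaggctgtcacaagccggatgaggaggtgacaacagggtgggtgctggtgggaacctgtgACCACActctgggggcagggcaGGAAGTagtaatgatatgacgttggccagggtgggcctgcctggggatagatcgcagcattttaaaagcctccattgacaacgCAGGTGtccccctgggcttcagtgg
Cd3d holds 1 ETS and 1 E-box match, Cd3g holds 2 E-box matches and 1 GATA match, Cd8a holds 0 matches, and Prf1 holds 1 RUNX, 2 ETS and 4 E-box matches. Of the 32851 start regions of this length in the table, 14% hold the RUNX letters, 19.7% the ETS letters, 44.8% the E-box and 9.99% the GATA letters. Among the 36 start regions of the 27 genes the shares were 27.8%, 44.4%, 66.7% and 5.56%. A match is a string of letters and not a measured site.

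The CD3 chains couple the antigen receptor to its kinases, and all 4 tested genes of the complex fell with no overlap between the groups. Cd3e (ENSMUSG00000032093, GRCm38 chromosome 9, 44998740 to 45009627) stood at 2.02, 1.15, 4.95 and 3.38 CPM in obese and 17.5, 6.42, 14.8 and 13.8 CPM in lean tumours. The highest obese value, replicate 3, lay just under the lowest lean value, replicate 2. The change was −2.19 ± 0.51 (edgeR adjusted p = 0.00807), a 4.55-fold lower level. Cd3d stood at 3.51, 1.65, 9.44 and 5.86 CPM against 35.8, 10.8, 26.9 and 30.1 CPM (−2.34 ± 0.58). As for Cd3e, obese replicate 2 and lean replicate 2 were the lowest of their groups. Cd3g stood at 5.08, 2.21, 10.9 and 7.03 CPM in obese and 37.7, 13.5, 31.2 and 34.2 CPM in lean tumours (−2.21 ± 0.51). Cd247, which encodes the zeta chain, stood at 3.14, 1.19, 4.33 and 3.48 CPM in obese and 16.4, 5.71, 13.6 and 13.3 CPM in lean tumours (−2.01 ± 0.47). Cd3d, Cd3e and Cd3g lie together on chromosome 9, and 56.4% of the exon bases of Cd247 are also exon of Pou2f1 on the other strand. The library kit is stranded but the strand setting of the counting is not given in the sources used here, so part of the Cd247 count may belong to Pou2f1, which was 34.2 CPM in obese and 15.8 CPM in lean tumours on average.

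The receptor chains themselves cannot be read from this table. Trac, Trbc1 and Trbc2, the constant regions of the alpha and beta chains, are listed at 0 in all 8 tumours. The same holds for all 270 T cell receptor genes of the annotation in the table, 144 variable segments among them, and for all 429 immunoglobulin genes. Cd3e held 49 to 776 counts in the same libraries. The receptor repertoire is therefore not described, and the cause of these zeros was not tested.

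The adhesion and proximal signalling genes behaved like CD3: all 6 fell, and in none did the groups overlap. Lck, the kinase that starts receptor signalling, stood at 11.1, 6.00, 17.5 and 12.7 CPM in obese and 58.2, 21.5, 46.8 and 50.5 CPM in lean tumours (−1.90 ± 0.40, edgeR adjusted p = 0.00527). Lat, the adaptor that Zap70 phosphorylates, stood at 2.11, 1.60, 4.39 and 3.26 CPM against 23.9, 7.89, 19.7 and 21.6 CPM. Its change of −2.68 ± 0.46 (edgeR adjusted p = 0.00234) was a 6.42-fold lower level. Zap70, the kinase bound to phosphorylated CD3, stood at 2.23, 1.04, 3.48 and 2.66 CPM in obese and 15.7, 4.29, 15.2 and 14.5 CPM in lean tumours (−2.40 ± 0.52). In these kinase and adaptor genes lean replicate 2 lay nearest to the obese tumours. Cd2, an adhesion receptor, stood at 7.18, 3.15, 9.22 and 6.5 CPM in obese and 24.9, 10.3, 19.8 and 24.6 CPM in lean tumours (−1.61 ± 0.40). Cd5, a receptor that dampens signalling, stood at 3.26, 1.76, 3.92 and 3.07 CPM in obese and 11.8, 4.77, 11.6 and 13.6 CPM in lean tumours (−1.79 ± 0.40). Its relative Cd6 stood at 4.5, 2.56, 6.44 and 5.42 CPM in obese and 15.7, 6.71, 16.9 and 15.8 CPM in lean tumours (−1.54 ± 0.39). The 3 receptor genes thus fell less in size than Lat and Zap70, a difference that was not tested.

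A list of 20 other T cell signalling genes, chosen like the 39 with earlier results of these data known, had 12 lower, 1 higher and 7 that did not pass, with a median of −1.70. Prkcq (−2.26 ± 0.39), a protein kinase C of the T cell synapse, Trat1 (−2.38 ± 0.46), a receptor-associated adaptor, and Skap1 (−2.25 ± 0.49), an adaptor in adhesion, fell. Il2rg, the gamma chain shared by several interleukin receptors, rose from 78.8 ± 23.6 CPM in lean to 246 ± 42.9 CPM in obese tumours (mean ± SD). Il2rg is also transcribed in myeloid cells.

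Of the 3 helper and costimulation genes, Cd4 fell and the others did not pass. Cd4 stood at 5.82, 9.87, 11.5 and 13.3 CPM in obese and 24.6, 18.5, 28.0 and 32.5 CPM in lean tumours, with no overlap (−1.35 ± 0.29, edgeR adjusted p = 0.00573). Obese replicate 1, and not replicate 2 as for CD3, was lowest for Cd4, which some mouse myeloid cells also carry. Cd28, the main costimulatory receptor, stood at 3.10, 2.42, 3.25 and 2.83 CPM against 4.47, 3.62, 4.70 and 3.62 CPM. Its groups did not overlap, but the change of −0.50 ± 0.25 did not pass (edgeR adjusted p = 0.110). Its adjusted p was 0.0411 under upper quartile scaling, 0.0460 under library size scaling, 0.0262 in the DESeq2 Wald test and 0.0211 in limma-voom with sample quality weights, and ranged up to 0.260 over the alternatives. Icos, a costimulator of activated helper and regulatory cells, stood at 8.34, 5.93, 7.58 and 5.52 CPM against 10.7, 5.83, 10.4 and 10.4 CPM (−0.45 ± 0.27, edgeR adjusted p = 0.183). Its groups overlapped through lean replicate 2, and without that tumour the change was −0.61 and passed (edgeR adjusted p = 0.0485, over all alternatives 0.00405 to 0.360). Of 12 other helper genes, 3 fell, 1 rose, 6 did not pass and 2 (Il4 and Il17a) were under the filter. The 3 that fell are 30% of those tested, near the 28.4% over all tested genes. Cd40lg, the helper ligand for CD40, fell from 0.911 ± 0.279 to 0.0911 ± 0.0424 CPM (−3.25 ± 0.45), and Tnfrsf18, which encodes GITR, and the cytokine gene Il21 fell by 1.71 and 2.89. In obese tumours Cd40lg rests on 1 to 6 counts and Il21 on 0 to 10. Il10, a cytokine of regulatory lymphocytes and macrophages, rose (2.72 ± 0.57).

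Of the 3 regulatory T cell genes, 0 fell, 1 rose and 2 did not pass, with a median of 0.26. Foxp3 (ENSMUSG00000039521, chromosome X, 7573644 to 7595245) stood at 5.12, 4.37, 3.07 and 4.54 CPM in obese and 6.97, 3.97, 6.03 and 7.56 CPM in lean tumours. Lean replicate 2 lay inside the obese range and the other 3 lean tumours above it, and the change of −0.52 ± 0.30 did not pass (edgeR adjusted p = 0.153). It passed in limma-voom with sample quality weights (adjusted p = 0.0350), and the alternatives ranged up to 0.358. Of the exon bases of Foxp3, 18.6% are shared with Flicr on the same strand and 12.9% with Ccdc22 on the other, which was 34.6 CPM in obese and 48.8 CPM in lean tumours. Il2ra, the alpha chain of the interleukin 2 receptor, stood at 11.3, 6.38, 8.51 and 6.10 CPM against 7.71, 4.23, 7.44 and 7.51 CPM (0.26 ± 0.31, edgeR adjusted p = 0.468), a change of 0.097 without lean replicate 2 and 0.070 without obese replicate 1. Ikzf2, which encodes Helios, a factor of many regulatory T cells that other cell types also make, stood at 15.2, 14.4, 10.02 and 15.2 CPM against 5.57, 2.66, 4.55 and 4.79 CPM. Every obese tumour lay above every lean one, and the gene rose by 1.64 ± 0.29 (edgeR adjusted p = 0.00260). Ctla4, an inhibitory receptor that regulatory T cells carry at high levels, stood at 6.46 ± 2.03 in obese and 6.54 ± 2.43 CPM in lean tumours (−0.02 ± 0.36, edgeR adjusted p = 0.966). It was singled out after its value was seen, from the list of 12 other helper genes. In that list 3 genes fell, 1 rose and 6 did not pass. Tnfrsf18 was among those that fell (−1.71 ± 0.34, edgeR adjusted p = 0.00457), with no overlap between the groups.

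**Figure D2:**
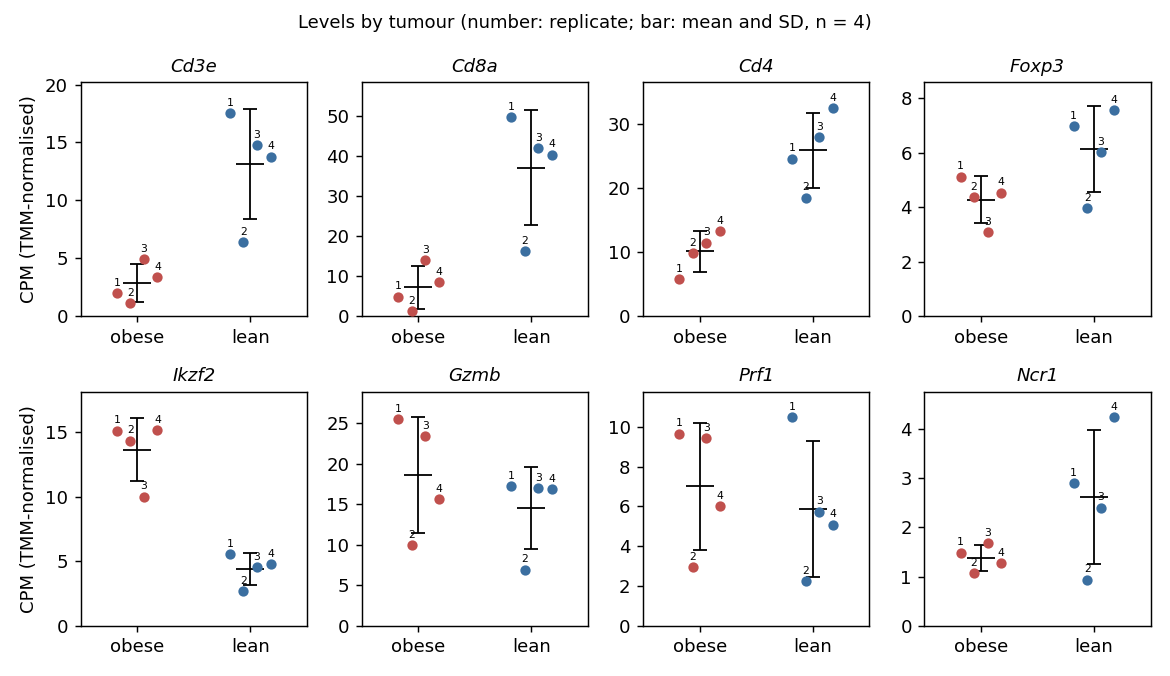
Levels (TMM-normalised CPM, vertical axes from 0) of 8 marker genes in each tumour, numbered by replicate, with the mean and SD of 4 tumours per group. The groups do not overlap for Cd3e, Cd8a, Cd4 and Ikzf2 and do overlap for Foxp3, Gzmb, Prf1 and Ncr1.

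Among genes of the T lineage, the transcription factor genes Tcf7, Lef1 and Bcl11b fell and Il7r did not pass. Tcf7, which encodes TCF1 of naive and memory T cells, stood at 12.0, 18.2, 11.9 and 15.8 CPM in obese and 32.0, 54.1, 35.6 and 27.4 CPM in lean tumours (−1.37 ± 0.25, edgeR adjusted p = 0.00327). Here lean replicate 2 was the highest lean tumour, while it was the lowest for CD3 and CD8. Lef1, its relative, stood at 0.661, 0.181, 0.812 and 0.216 CPM against 4.12, 2.38, 2.498 and 3.02 CPM (−2.69 ± 0.56). Tcf7 and Lef1 did not overlap between the groups. Bcl11b, a factor that commits cells to the T lineage, stood at 2.35, 2.32, 1.43 and 3.07 CPM in obese and 5.48, 5.15, 6.23 and 3.73 CPM in lean tumours, also with no overlap. It fell by 1.16 ± 0.32 (edgeR adjusted p = 0.0156), and its call ended without lean replicate 3 (0.0536, over all alternatives 0.00115 to 0.0536). These 3 factors are known in mammary epithelium too, whose markers were lower in obese tumours as given above, and that part in the result was not tested. Il7r, the interleukin 7 receptor of naive and memory cells, stood at 25.2, 14.6, 14.9 and 10.3 CPM against 22, 13.1, 15.2 and 16.7 CPM. Its groups overlapped (−0.05 ± 0.30, edgeR adjusted p = 0.900), and the sign changed without obese replicate 2, 3 or 4 or lean replicate 1 (0.0093, 0.0024, 0.13 and 0.13).

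Some genes of cytotoxic cells fell with CD8 and others did not pass, and a difference between these sets of genes was not tested. Of the 10 genes, 6 fell, 0 rose and 4 did not pass, with a median of −1.80. Cd8a (ENSMUSG00000053977, chromosome 6, 71373427 to 71379173) stood at 4.91, 1.29, 14.1 and 8.57 CPM in obese and 49.6, 16.3, 42.0 and 40.3 CPM in lean tumours. The obese tumours ranged widely among themselves, lowest in replicate 2 and highest in replicate 3, and all lay under the lean tumours. The change was −2.36 ± 0.68 (edgeR adjusted p = 0.0186), a 5.14-fold lower level, and Cd8b1, the beta chain, stood at 2.06, 0.643, 6.59 and 4.46 CPM in obese and 25.8, 8.55, 23.7 and 20.6 CPM in lean tumours (−2.51 ± 0.69). Eomes, a T-box factor of effector and memory cells, stood at 0.908, 0.593, 1.06 and 1.15 CPM against 4.22, 2.13, 5.23 and 3.71 CPM (−2.04 ± 0.38). Cd8b1 and Eomes did not overlap between the groups. Nkg7, a granule membrane protein, stood at 6.94, 2.04, 13.5 and 10.5 CPM in obese and 42.4, 13.1, 39.2 and 40.8 CPM in lean tumours (−2.04 ± 0.59), with lean replicate 2 (13.1 CPM) just under obese replicate 3 (13.5 CPM). Gzmk, a granzyme of memory cells, stood at 0.124, 0.0330, 1.10 and 0.912 CPM against 5.21, 2.30, 7.57 and 5.01 CPM, and obese replicates 1 and 2 rest on 3 and 2 counts. Its change of −3.19 ± 0.97 (edgeR adjusted p = 0.0224) was −3.79 without obese replicate 3 and missed the threshold without lean replicate 3 (0.05005, over all alternatives 0.000738 to 0.05005). Tbx21, which encodes T-bet, stood at 1.36, 0.692, 2.03 and 2.09 CPM in obese and 5.62, 1.88, 5.37 and 5.27 CPM in lean tumours (−1.55 ± 0.49, edgeR adjusted p = 0.0255), with lean replicate 2 inside the obese range. Tbx21 missed the threshold when obese replicate 1 (0.0581) or lean replicate 1, 3 or 4 (0.0558, 0.0600 and 0.0571) was left out, within a range of 0.00201 to 0.0600 over the alternatives.

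The genes of the killing proteins Gzma, Gzmb and Prf1 and the cytokine gene Ifng did not pass the test. Gzmb, the granzyme that triggers apoptosis, stood at 25.5, 9.99, 23.5 and 15.6 CPM in obese and 17.3, 6.94, 17 and 16.9 CPM in lean tumours. Of the obese tumours, 2 lay above and 2 below all lean values other than that of replicate 2, and the change was 0.36 ± 0.38 (edgeR adjusted p = 0.433). It was 0.13 without lean replicate 2 and 0.18, 0.58 and 0.24 without obese replicates 1, 2 and 3. Prf1, the pore-forming protein perforin, stood at 9.66, 2.93, 9.44 and 6.00 CPM against 10.5, 2.24, 5.74 and 5.08 CPM (0.25 ± 0.53, edgeR adjusted p = 0.696), with a sign change to −0.02 without lean replicate 2. It was 0.70 without lean replicate 1 and 0.069, 0.52 and 0.080 without obese replicates 1, 2 and 3. Gzma, granzyme A, stood at 9.12, 3.25, 9.05 and 5.33 CPM against 9.72, 4.81, 7.34 and 7.80 CPM (−0.15 ± 0.39, edgeR adjusted p = 0.749). Its sign changed without obese replicate 2 (0.088) and without lean replicate 1 (0.02). Replicate 2 was the lowest of its group in both groups for these 3 genes. Ifng, interferon gamma, stood at 1.65, 0.132, 1.78 and 1.56 CPM against 3.39, 1.02, 3.57 and 2.91 CPM (−1.09 ± 0.73, edgeR adjusted p = 0.222), and passed in limma-voom with sample quality weights (adjusted p = 0.0316), the alternatives ranging up to 0.370. Without obese replicate 2 the change was −0.70. Granzyme and Klr genes have close relatives in the genome, and how reads shared by such copies were counted is not given in the sources used here.

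Of the 5 NK genes, Il2rb and Klrb1c fell and 3 did not pass. Il2rb, the interleukin 2 and 15 receptor chain of NK and memory CD8 cells, stood at 22.7, 10.6, 24.1 and 19.2 CPM in obese and 62.0, 24.4, 51.6 and 61.4 CPM in lean tumours (−1.38 ± 0.36, edgeR adjusted p = 0.0121). The lowest lean tumour, replicate 2, lay just above the highest obese tumour. Klrb1c, the NK1.1 antigen, stood at 3.22, 1.07, 4.12 and 1.82 CPM against 6.78, 4.08, 6.11 and 6.91 CPM (−1.22 ± 0.45, edgeR adjusted p = 0.0432). That call ended without obese replicate 1, 2 or 4 (0.0576, 0.0681 and 0.107), without lean replicate 1, 3 or 4 (0.0873, 0.0857 and 0.0941) and with no filter (0.0576), over all alternatives 0.000383 to 0.107. Ncr1, which encodes NKp46 and is among the most NK-restricted genes, stood at 1.49, 1.07, 1.68 and 1.27 CPM against 2.90, 0.939, 2.40 and 4.24 CPM (−0.93 ± 0.46, edgeR adjusted p = 0.109). Lean replicate 2 was the lowest of all 8 tumours, and without it the change was −1.21 and passed (edgeR adjusted p = 0.0200, over all alternatives 0.0200 to 0.303), while without lean replicate 4 it was −0.59. Klrk1, which encodes the activating receptor NKG2D, stood at 13.1, 8.36, 21.2 and 19.03 CPM against 19.9, 9.01, 19.3 and 19.9 CPM (−0.14 ± 0.36, edgeR adjusted p = 0.742), with a sign change to 0.072 without obese replicate 2 and a range down to −0.36, without lean replicate 2. Klrd1, the CD94 chain, stood at 4.09, 2.39, 9.63 and 4.42 CPM in obese and 9.43, 4.58, 8.71 and 7.32 CPM in lean tumours (−0.55 ± 0.45, edgeR adjusted p = 0.313). Obese replicate 3 was the highest of all 8 tumours, and without it the change was −1.04 and passed (0.0339, over all alternatives 0.00933 to 0.558). Without obese replicate 2 it was −0.30.

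Of 17 other cytotoxic and NK genes, 7 fell, 0 rose, 8 did not pass and 2 were under the filter, with a median of −1.09. The 7 that fell are 46.7% of the 15 tested, against 28.4% over all tested genes. Cd7, a surface protein of T and NK cells, fell by 2.88 ± 0.72, the protease gene Ctsw by 2.56 ± 0.70 and Cd160, a receptor of cytotoxic cells, by 2.49 ± 0.70. The groups overlapped for Ctsw. The integrin gene Itga2, which epithelium also carries, fell by 2.44 ± 0.52. Genes of lymphocyte homing moved in both directions. The 2 that fell are 20% of the 10 tested, where 28.4% of all tested genes fell. The chemokine receptor gene Cxcr3 fell by 1.78 ± 0.53, while the integrin gene Itgb7 (2.15 ± 0.29) and the transcription factor gene Klf2 (2.36 ± 0.36), which are also transcribed outside the T lineage, rose. Cxcr6 also fell, by 1.98 ± 0.67, and the groups overlapped for both Cxcr3 and Cxcr6. Of 6 genes of gamma-delta T cells only 2 were tested, and Sox13, a transcription factor of these cells that epithelium also carries, fell by 3.53 ± 0.67.

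**Figure D3:**
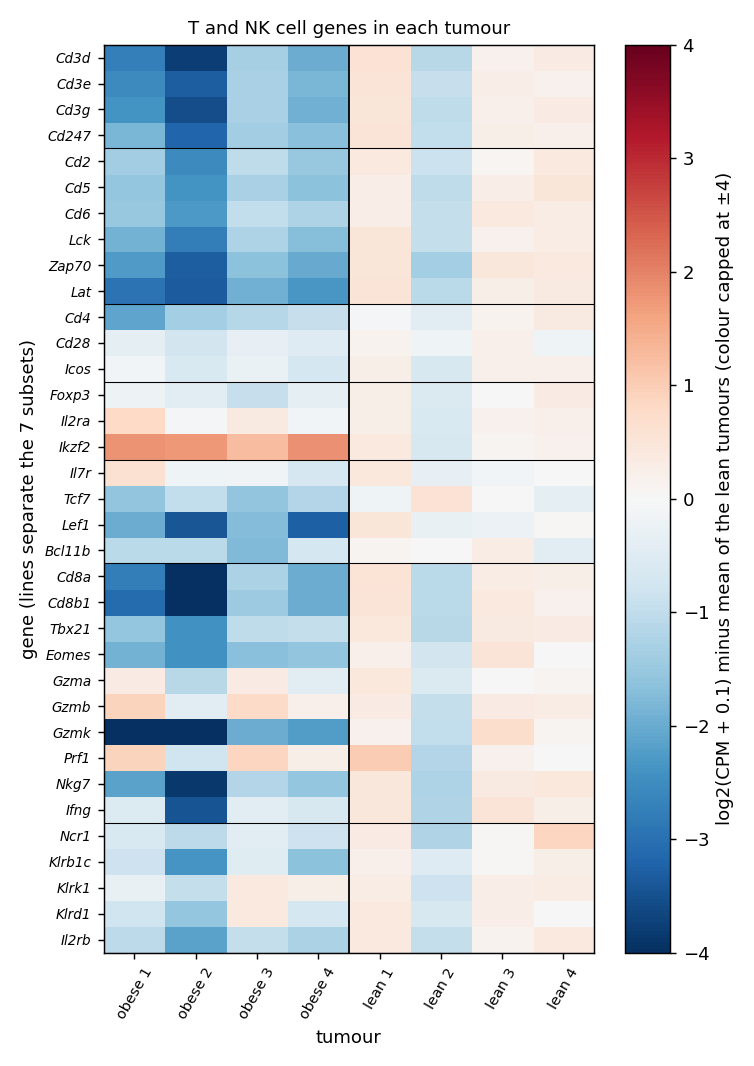
Log2(CPM + 0.1) of the 35 tested genes (rows, by subset) in the 8 tumours (columns), as the difference from the mean of the lean tumours, with the colour capped. CD3, signalling and CD8 genes are low in all 4 obese tumours and lower in lean replicate 2 than in the other lean tumours. The granzyme B and perforin rows are also lower in lean replicate 2 than in the other lean tumours, but show no split between the groups.

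The subsets were compared through 8 ratios of marker genes per tumour, as differences in mean log2 ratio (pseudocount 0.1 CPM) and tested by two-sided exact permutation of the group labels (70 assignments). The smallest p possible is 0.0286, and no ratio reached an adjusted p under 0.05 over the 8 ratios. The Prf1 to Cd3e ratio was 4.60, 2.42, 1.89 and 1.75 in obese and 0.601, 0.359, 0.392 and 0.373 in lean tumours, with no overlap. The difference was 2.55 on the log2 scale (exact p = 0.0286, adjusted p = 0.0571). The Ncr1 to Cd3e ratio was likewise higher in every obese tumour, by 1.52 (exact p = 0.0286, adjusted p = 0.0571). Of the genes in these ratios Cd3e fell, while Prf1 and Ncr1 did not pass.

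The Foxp3 to Cd8a ratio was 1.04, 3.22, 0.224 and 0.535 in obese and 0.142, 0.248, 0.145 and 0.190 in lean tumours. It was highest in obese replicates 1 and 2 and overlapped the lean range through obese replicate 3, with a difference of 2.17 (exact p = 0.0571, adjusted p = 0.0653). The Foxp3 to Cd4 ratio differed by 0.89 and the Cd8a to Cd4 ratio by −1.29, both with overlap (exact p = 0.0571, adjusted p = 0.0653). Without obese replicate 1 the first difference was 0.55, and without obese replicate 2 the second was −0.62. Against Ptprc, the pan-leukocyte CD45 gene, Cd3e was lower in every obese tumour, with ratios of 0.0154, 0.0107, 0.0294 and 0.0188 against 0.143, 0.0733, 0.127 and 0.115. This difference of −2.68 was a 6.41-fold lower ratio (exact p = 0.0286, adjusted p = 0.0571). Against Csf1r, the macrophage growth factor receptor, the difference was −1.73 (exact p = 0.0286, adjusted p = 0.0571). Csf1r itself fell, from 186 ± 47.2 to 128 ± 15.9 CPM (−0.54 ± 0.20, edgeR adjusted p = 0.0428). Of 10 macrophage markers it was the 1 that passed as lower, while 6 rose. The 3 that did not pass were C1qa, C1qb and Lyz2. Their changes were −0.75 ± 0.37, −0.58 ± 0.32 and −0.61 ± 0.30 (edgeR adjusted p = 0.107, 0.146 and 0.110). Against Cd79a, a B cell receptor chain, the Cd3e ratio differed by 1.65 with overlap (exact p = 0.0857, adjusted p = 0.0857), and Cd79a itself fell by 3.82 ± 0.62.

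**Figure D4:**
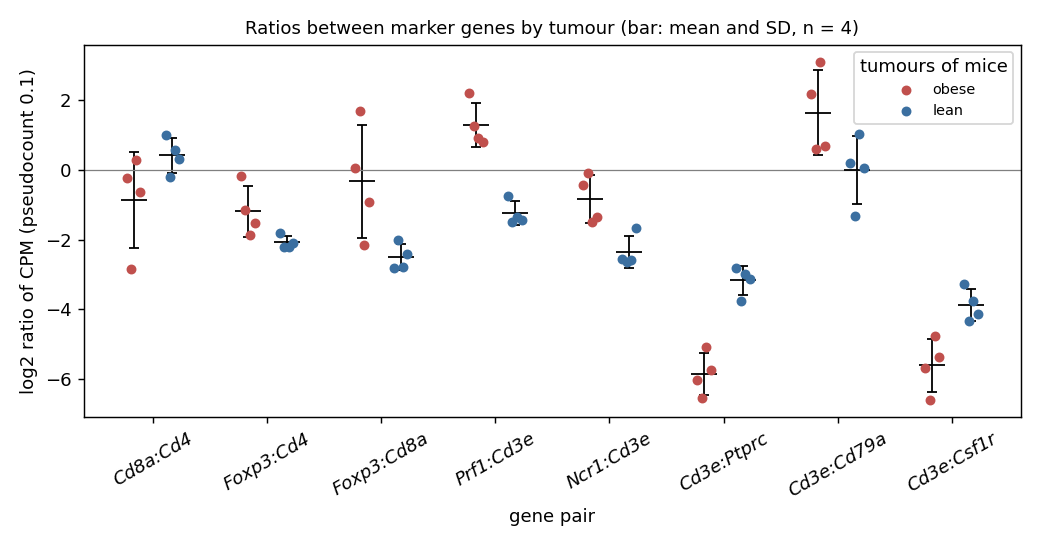
Log2 ratios of CPM (pseudocount 0.1) between 8 pairs of marker genes in each tumour, with mean and SD of 4 tumours per group. The groups do not overlap for Prf1 to Cd3e, Ncr1 to Cd3e, Cd3e to Ptprc and Cd3e to Csf1r.

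Per kilobase of exon, the order of levels differed between the groups. In lean tumours Nkg7 was highest among the 39 genes (37.1 ± 15.2 CPM per kb), followed by Lck (15.1 ± 5.43), Cd3d (14.3 ± 5.89) and Tcf7 (14.2 ± 4.46), and the last 3 did not differ beyond their SD. In obese tumours Gzmb was highest (13.0 ± 5.001 CPM per kb), followed by Nkg7 (9.004 ± 5.38) and Gzma (6.65 ± 2.88), neighbours within their SD. Cd8a stood at 10.2 against 6.43 CPM per kb for Cd4 in lean tumours and at 1.98 against 2.51 in obese ones. Foxp3 stood at 1.34 in lean and 0.934 CPM per kb in obese tumours.

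Markers of other host cells moved in different directions. Of 8 pan-leukocyte markers 2 (Cd53 and Arhgdib) rose, 0 fell and 6 did not pass, where 30.9% of all tested genes rose. The median change of the 8 was 0.20, from −0.75 to 2.11. Their summed levels were 997.7 to 1827 CPM in obese and 643.9 to 1229 CPM in lean tumours. Arhgdib alone stood at 631 ± 254 against 146 ± 53.9 CPM. Ptprc stood at 153 ± 31.1 against 112 ± 15.8 CPM and did not pass (edgeR adjusted p = 0.0571). Of 10 macrophage and monocyte markers 6 rose, 1 fell and 3 did not pass, with sums of 1907 to 2286 CPM against 1147 to 2988 CPM. Of 10 B cell markers 9 fell and 0 rose, with sums of 8.44 to 19.1 CPM against 44.1 to 81.7 CPM and Cr2 at 0 counts in all 4 obese tumours. A lymph node lies in mammary gland 4 of the mouse, and of 3 tested markers of lymph node stroma and high endothelium (Cxcl13, Glycam1 and Madcam1) 3 fell, with sums over the list of 0.330 to 1.13 CPM against 4.47 to 6.45 CPM. In lean replicate 2 the B cell sum was the highest of the lean tumours (81.7 CPM), while the CD3 sum was the lowest (36.4 CPM against 86.5 to 107 CPM). The part of these cells in the T and NK cell results was not tested.

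Gata1 stands apart from the other 38 genes. It encodes a factor of erythroid, megakaryocyte and mast cells and is no marker of T or NK cells. It held 0 to 4 counts in obese and 1 to 6 counts in lean tumours, did not pass the filter and was not tested. Its highest level was 0.117 CPM in lean replicate 3, from 6 counts.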

How the data were processed

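Total RNA of 8 tumours was sequenced with a stranded library kit, per the labels' protocols. The deposited values are raw counts of reads per Ensembl gene, as the authors assigned them. Per the submitters' processing notes the tools were STAR 2.5.2b and HTSeq, with cutadapt 1.12 and CASAVA 1.8 and bcl2fastq 2.18.0.12, on mm10. Which annotation and strand setting were used, and how shared reads were handled, is not given in the sources used here. GENCODE M21, on GRCm38, supplied symbols, exon lengths and positions.

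Groups came from the labelled condition, and replicate numbers follow accession order and only name tumours. Genes were kept by edgeR's filterByExpr (minimum count 10, minimum total 15), scaled by TMM and compared by the two-sided quasi-likelihood F test of edgeR at a Benjamini-Hochberg adjusted p under 0.05. The SE is the log2 change over the square root of F. No 2 libraries were identical. Every gene of the list is accounted for. Of each further T and NK cell list up to 4 genes with the smallest p are named. The planned rule for lists of other cells, up to 3 genes with the highest mean, was not followed: Ptprc, Csf1r and Cd79a are named as denominators of ratios. Cxcr6, Ctla4, C1qa, C1qb, Lyz2, Cd53, Arhgdib, Cr2, Cxcl13, Glycam1 and Madcam1, and the genes of the other observations, were chosen after their values were seen. The members and all lists were chosen with earlier results of these data known. Besides the homing genes named, 1 gene of that list is not reported here. The steps were tested on simulated data of 4 against 4 tumours. At an adjusted p under 0.05, edgeR recovered 7 of 100 simulated 2-fold changes and 54 of 98 simulated 4-fold changes. The simulation changed only these 100 and 98 of 14756 tested genes, while 59.2% of tested genes were called in the data. With so few changed genes the adjusted threshold is stricter, so these rates do not measure how many changes are found here. A gene that did not pass is not shown to be unchanged. Alternatives used DESeq2 1.42.0 and limma 3.58.1 beside edgeR 4.0.16, all in R 4.3.3, and changed the scaling, the filter, the test, the pseudocount or the tumours included.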

Additional observations from a re-analysis of the deposited data

Results flagged for a closer look

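Dixon's criterion on the log2 scale was applied to 86 groups of 4 tumours (35 genes and 8 ratios, each in obese and lean tumours). In 13 groups 1 tumour lay far from the other 3. Chance gives about 1 in 20 for a single group. The groups share the same tumours and are not independent, so the 13 cannot be set against that rate. Lean replicate 2 was the low tumour in 10 of the 13 groups. Its levels, with the range of the other lean tumours, were 4.77 CPM for Cd5 (11.6 to 13.6), 6.71 for Cd6 (15.7 to 16.9), 4.29 for Zap70 (14.5 to 15.7) and 5.83 for Icos (10.4 to 10.7). For Il2ra it held 4.24 CPM (7.44 to 7.71), for Tbx21 1.88 (5.27 to 5.62), for Gzmb 6.94 (16.9 to 17.3) and for Nkg7 13.1 (39.2 to 42.4). For Ifng it held 1.02 CPM (2.91 to 3.57) and for Klrk1 9.01 (19.3 to 19.9).

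Obese replicate 2 held 0.132 CPM of Ifng, where the other obese tumours held 1.56 to 1.78. Obese replicate 3 held 10.02 CPM of Ikzf2, where the others held 14.4 to 15.2. The Ncr1 to Cd3e ratio was 0.313 in lean replicate 4 and 0.159 to 0.170 in the other lean tumours.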

How the results depend on the processing

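Over 16 alternatives (other scaling, filters and tests, and leaving out each tumour), 19 of the 23 called genes kept their call and direction in each, and 4 (Bcl11b, Tbx21, Gzmk and Klrb1c) lost it in at least 1. Of the 12 genes without a call, 6 passed in at least 1 alternative (Cd28, Icos, Foxp3, Ifng, Ncr1 and Klrd1). The number of lower genes in the list ran from 18 to 24 without 1 tumour and was 21 to 28 in the other settings, and 1 gene was higher throughout. The sign changed for genes without a call: with limma-voom and quality weights for Il2ra (−0.12) and Gzmb (−0.069), and when 1 tumour was left out for Il7r (−0.32 to 0.13, with 0.0093, 0.0024 and 0.13 without obese replicates 2, 3 and 4 and 0.13 without lean replicate 1), Gzma (−0.33 to 0.088, with 0.020 without lean replicate 1), Prf1 (−0.020 to 0.70) and Klrk1 (−0.36 to 0.072). The cause was not tested. The 8 ratios kept their direction and their side of the threshold with a pseudocount of 0.5 CPM and with library size only. The scaling of a tumour cancels in its ratios apart from the pseudocount, so library size only could hardly change them. With a smallest possible exact p of 0.0286 over 8 ratios, the side of the threshold could also hardly change. Upper quartile factors and library size only moved the median of all genes from −0.04 to −0.25 and −0.22, and with upper quartile factors 41.2% of called genes were higher in obese tumours, against 52.1%. No paired analysis was possible because the labels give the tumours of the 2 groups no shared replicate numbers.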

Other observations

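Markers of dendritic cells, which present antigen to T cells, were lower in part. Of 7 such markers 3 fell, 0 rose and 4 did not pass, where 28.4% of all tested genes fell. Clec9a, a receptor of cross-presenting dendritic cells, fell from 3.68 ± 1.03 to 0.879 ± 0.615 CPM (−2.06 ± 0.55), and Flt3, their growth factor receptor, fell by 0.96 ± 0.28. Xcl1, a chemokine that NK and CD8 T cells make, fell from 16.6 ± 8.61 to 3.05 ± 2.69 CPM (−2.44 ± 0.69), with overlap through lean replicate 2. Its receptor gene Xcr1 stood at 2.17 ± 2.55 against 2.39 ± 0.554 CPM (−0.13 ± 0.99, edgeR adjusted p = 0.913) and ranged from 0.0826 CPM in obese replicate 1 to 5.59 CPM in obese replicate 4. These 4 genes were chosen after their values were seen.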
